A study of Mus musculus with 12 samples.

Results

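The genes described here are 10 genes of DNA replication licensing and of the replicative helicase, Mcm2, Mcm3, Mcm4, Mcm5, Mcm6, Mcm7, Cdc45, Cdc6, Cdt1 and Pcna, taken by name from the 54532 genes of a count table. Their RNA was measured by RNA-Seq in colonic tissue of male C57BL/6J mice with a wild-type genotype, 5 weeks old at purchase, in 4 groups with 3 libraries each. The control group was not treated, and the model group received dextran sodium sulfate (DSS), which damages the gut lining and serves as a chemical model of acute colitis. The Rhy group received DSS together with rhynchophylline, an alkaloid, and the DXM group received DSS together with the glucocorticoid dexamethasone at 4 mg/kg. Rhy was given in the study at 2, 4 or 8 mg/kg, and the labels do not say which dose the sequenced mice had. Pieces of whole colon wall were sequenced, so fewer cells of a type and less RNA per cell cannot be told apart. Whether each library came from a mouse of its own is not stated, and p-values measure the spread between these libraries only. The 10 genes were chosen by name and with the measured differences between these groups in view, so their differences between groups are given as a description, without a test of their own.

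A cell copies its genome once per division because replication starts only at origins that were licensed beforehand. In G1 phase the origin recognition complex, Cdc6 and Cdt1 load the ring of the MCM subunits, Mcm2 to Mcm7, onto DNA. In S phase Cdc45 and the GINS complex join the ring and make it an active helicase, and Pcna forms the clamp that holds the polymerases on DNA. In the healthy colon these genes are used by the dividing cells of the crypt base, and in colitis lymphocytes and repairing epithelium also divide.

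All 10 genes passed the filter on low counts that left 16904 genes, and their counts ran from 20 (Cdc45) to 2163 (Pcna) in a single library. Total counts were 14346478 to 17749716 per library. Values are given in CPM, a count relative to its library total after TMM scaling. The libraries model 1 and model 2 were closer to each other than any other pair, with a common dispersion (variance beyond counting noise) of 0.00201 against 0.0604 to 0.351 in the other 65 pairs. Hoxb13, a gene of the distal colon, was under 5 CPM in control 3, model 3 and Rhy 1, and the summed level of 8 B cell markers was 10.8 CPM in control 3 and 1.63 CPM in Rhy 1 against 116 to 220 CPM elsewhere. The sum of 10 epithelial markers was 14223 to 24414 CPM, so colonic epithelium was present in each library.

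All 10 genes were higher in the model group than in the control group, by 1.03 (Mcm7) to 1.80 (Cdc45) on the log2 scale, and the 2 groups did not overlap in any of them. The median difference was 1.43, where the median of all 16904 genes was 0.01. For comparison, 10.4% of all genes lay higher in the model group without overlap and 6.61% lower. By edgeR's quasi-likelihood test, 5.11% of all genes were higher and 4.51% lower at an unadjusted p under 0.05, and the 10 genes were among the higher ones. After Benjamini-Hochberg adjustment over all genes, edgeR called 0 genes at 0.05, and 1626 genes had an unadjusted p under 0.05. DESeq2 called 46 genes with all libraries, none of the 10 among them. With only these 6 libraries, DESeq2 called 167 genes, among them Mcm3, Mcm5, Mcm7, Cdc6 and Cdc45. These tests count model 1 and model 2, the closest pair of libraries, as separate replicates. With the pair summed into 1 library, the smallest adjusted p of the 10 in edgeR's test was 0.887, against 0.459 with them apart. DESeq2 was not run with the pair summed.

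Cdc6 and Cdt1 are the loaders of the MCM ring. Cdc6 measured 2.92, 4.73 and 4.61 CPM in control 1 to 3, 11.7, 10.7 and 9.65 CPM with DSS alone, 5.56, 12.5 and 11.2 CPM in the Rhy group and 5.28, 10.4 and 8.41 CPM in the DXM group. Its control libraries were below the other 9 libraries, and its log2 difference between model and control was 1.38 (SE 0.36). Cdt1, the partner that geminin inhibits once S phase has begun, measured 5.77, 14.8 and 17.5 CPM in the control group, 28.6, 26.8 and 32.2 CPM with DSS alone, 18.6, 42.3 and 33.4 CPM in the Rhy group and 23.9, 34.4 and 32.2 CPM in the DXM group. The control libraries of Cdt1 were also below all others, with a log2 difference of 1.20 (SE 0.38).

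The 6 MCM genes encode the subunits of one ring, which pushes the DNA strands apart. Mcm2 measured 7.04, 11.2 and 29.0 CPM in the control group, 39.3, 42.4 and 47.4 CPM with DSS alone, 22.9, 59.4 and 64.8 CPM in the Rhy group and 19.0, 55.5 and 50.04 CPM in the DXM group. Mcm6 measured 10.4, 17.7 and 49.3 CPM in the control group, 77.3, 83.8 and 59.7 CPM with DSS alone, 45.1, 92.9 and 90.3 CPM in the Rhy group and 35.9, 85.7 and 59.6 CPM in the DXM group. In both genes control 3 was far above the other control libraries and came closest to the model group. The log2 difference between model and control was 1.44 (SE 0.54) for Mcm2 and 1.51 (SE 0.51) for Mcm6, and without control 3 it was 2.21 and 2.35.

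Mcm5 had the largest difference of the ring, 1.75 (SE 0.50) on the log2 scale. It measured 8.09, 12.5 and 27.4 CPM in the control group, 56.8, 53.7 and 51.9 CPM with DSS alone, 18.6, 65.1 and 57.1 CPM in the Rhy group and 24.0, 51.0 and 43.8 CPM in the DXM group. Mcm3 measured 16.1, 17.7 and 27.6 CPM in the control group, 55.4, 53.0 and 60.7 CPM with DSS alone, 29.1, 70.9 and 67.7 CPM in the Rhy group and 20.2, 59.3 and 58.4 CPM in the DXM group. Its log2 difference between model and control was 1.46 (SE 0.42). Rhy 1 and DXM 1 were the low libraries of their groups in both genes.

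Mcm4 measured 6.51, 15.2 and 23.1 CPM in the control group, 39.3, 38.1 and 41.8 CPM with DSS alone, 20.3, 44.5 and 47.5 CPM in the Rhy group and 18.4, 42.6 and 42.9 CPM in the DXM group. This was a log2 difference of 1.41 (SE 0.46) between model and control. Mcm7 differed least, by 1.03 (SE 0.31), and its 3 control libraries were close together. It measured 23.4, 30.4 and 33.5 CPM in the control group, 57.1, 61.2 and 59.8 CPM with DSS alone, 31.1, 78.4 and 72.4 CPM in the Rhy group and 38.9, 64.4 and 58.3 CPM in the DXM group.

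Cdc45, which turns the loaded ring into a working helicase, was the gene with the widest step. It measured 1.498, 3.13 and 5.05 CPM in the control group, 11.3, 11.5 and 11.1 CPM with DSS alone, 4.02, 12.3 and 10.1 CPM in the Rhy group and 4.46, 10.5 and 7.34 CPM in the DXM group. The log2 difference between model and control was 1.80 (SE 0.49), a 3.48-fold higher level. Pcna, the sliding clamp, measured 26.7, 44.6 and 64.2 CPM in the control group, 94.0, 96.8 and 95.9 CPM with DSS alone, 65.7, 87.3 and 122 CPM in the Rhy group and 39.8, 102 and 95.1 CPM in the DXM group. Its log2 difference was 1.08 (SE 0.38), or 2.11-fold.

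**Figure D1:**
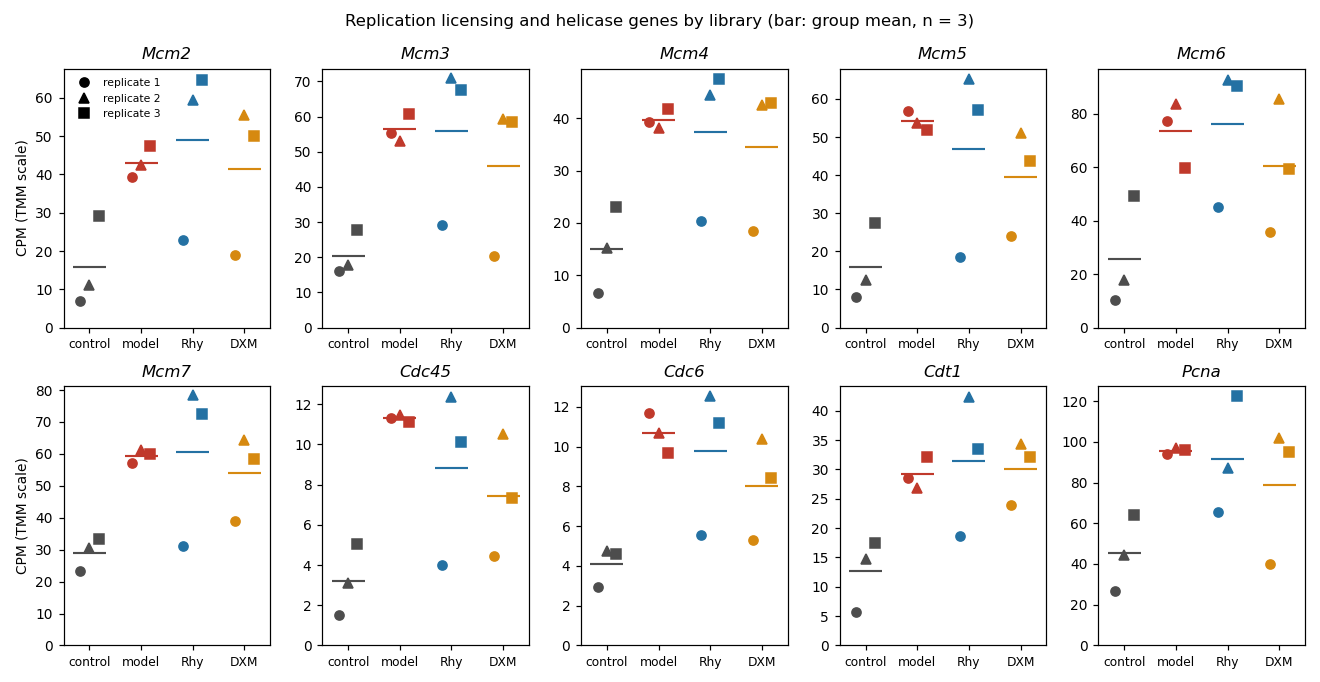
Level of each of the 10 genes (CPM, linear axis from 0) in the 12 libraries, with a symbol for each replicate, a colour for each group and a bar for the group mean (n = 3). The model libraries lie above the control libraries in all 10 panels, and Rhy 1 and DXM 1 lie below the model libraries.

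The groups differed more in their spread than a mean shows. Control 1 was the lowest of the 12 libraries in all 10 genes. In Rhy 1 and in DXM 1 all 10 genes were below the range of the model group, and in Rhy 2 they were above it in 9 of 10, Pcna being the exception. Rhy 3 was above the model range in 8 genes, all but Cdc45 and Cdc6, DXM 2 in 6 and DXM 3 in 2. The mean log2 CPM over the 10 genes was 3.02, 3.77 and 4.44 in control 1 to 3 and 5.28 in each of the 3 model libraries. It was 4.33, 5.55 and 5.51 in the Rhy group and 4.24, 5.38 and 5.17 in the DXM group.

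Comparing Rhy with model asks whether the alkaloid changed the response to DSS. The 10 genes differed by -0.35 (Cdc45, SE 0.47) to 0.19 (Mcm2, SE 0.53) on the log2 scale, and the groups overlapped in all 10, where 5.51% of all genes were higher and 6.02% lower without overlap. The median difference was -0.03, and that of all genes was -0.01. In edgeR 0 of the 16904 genes passed an adjusted p of 0.05 and none of the 10 had an unadjusted p under 0.05, where 1.74% of all genes were higher and 1.98% lower at that limit. DESeq2 called 5 genes with all libraries and 44 with these groups only, none of the 10 in either. The sign turned with single libraries, since without Rhy 1 the median of the 10 was 0.25 and without Rhy 2 it was -0.21.

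DXM against model gave differences of -0.60 (Cdc45, SE 0.47) to 0.05 (Cdt1, SE 0.37) with a median of -0.28, beside -0.01 over all genes. In Mcm5 and Cdc45 the DXM libraries were all below the model libraries, and in the other 8 genes the groups overlapped. Over all genes, 12.2% were lower and 10.4% higher without overlap. None of the 10 had an unadjusted p under 0.05 in edgeR's test, where 4.89% of all genes were higher and 2.80% lower at that limit, and 0 genes passed the adjustment. DESeq2 called 51 genes with all libraries and 590 with these groups only, without any of the 10. Without DXM 1 the median was 0.05, and without DXM 2 it was -0.51. DXM against Rhy differed by -0.33 (Mcm6, SE 0.50) to -0.06 (Cdt1, SE 0.37), with overlap in all 10 genes, where 7.45% of all genes were higher and 4.71% lower without overlap. In edgeR's test 0 of the 10 had an unadjusted p under 0.05, beside 2.80% of all genes higher and 2.21% lower. The median was -0.24 and rested on single libraries, being 0.04 without DXM 1, -0.02 without Rhy 2 and -0.57 without Rhy 1.

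The 10 genes had higher fitted levels in both drug groups than in the control group. These comparisons share their control libraries with model against control and are not independent of it. Rhy against control gave 1.02 (Pcna, SE 0.38) to 1.63 (Mcm2, SE 0.54), with a median of 1.38 beside -0.03 over all genes, and Mcm3, Cdc6, Cdt1 and Pcna did not overlap, where 7.50% of all genes were higher and 4.79% lower without overlap. DXM against control gave 0.80 (Pcna, SE 0.38) to 1.39 (Mcm2, SE 0.54), with a median of 1.20 beside 0.06 over all genes, and Mcm7, Cdc6 and Cdt1 did not overlap, beside 9.77% of all genes higher and 8.89% lower. The adjusted p-values of the 10 genes in edgeR's test were 0.364 to 0.367 for Rhy and 0.141 to 0.275 for DXM, and 0 genes of the table passed. At an unadjusted p under 0.05, all 10 genes were higher in the Rhy group and 9 in the DXM group, all but Pcna, beside 6.46% of all genes higher and 5.09% lower for Rhy, and 8.68% higher and 10.2% lower for DXM. The count of 9 rested on single libraries, being 1 without control 1, 4 without control 2, 1 without DXM 2 and 3 without DXM 3. DESeq2 with all libraries called 1059 genes in DXM against control, Cdt1 alone of the 10, and 32 in Rhy against control, none of the 10. With only the groups compared it called 395 and 2 genes, none of the 10.

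**Figure D2:**
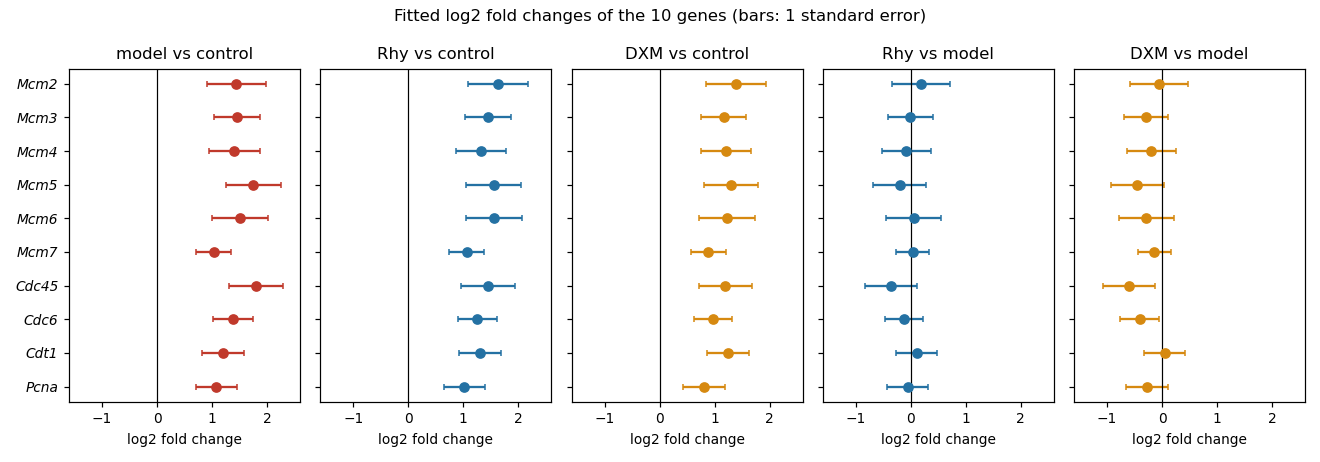
Log2 difference of each of the 10 genes in the comparisons of model, Rhy and DXM with control and of Rhy and DXM with model, with bars of 1 standard error from the edgeR fit. All differences from control are above 0, from 0.80 to 1.80, and the differences of Rhy and DXM from model lie between -0.60 and 0.19.

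The share of reads on mitochondrially encoded genes moved with these levels. It was 21.0, 17.0 and 6.33% in control 1 to 3, 13.4, 13.98 and 11.1% in the model group, 23.8, 15.2 and 8.90% in the Rhy group and 25.7, 7.88 and 7.48% in the DXM group. Control 1, Rhy 1 and DXM 1, the lowest of their groups in the mean of the 10 genes, had the highest share of their groups, while the 3 model libraries differed little in either value. Over the 12 libraries the mean log2 CPM of the 10 genes and this share had a Pearson correlation of -0.60 (Spearman -0.47), and after removal of the group means the Pearson correlation was -0.92. Both values are parts of the same library totals. With the mitochondrially encoded genes removed from the table the median difference between model and control was 1.38.

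A term for the mitochondrial share in the edgeR fit was added after the data were seen. With it the median difference between model and control was 1.36, with 0 of the 10 genes past an adjusted p of 0.05. For Rhy against control the median was 1.48 and all 10 genes passed in that fit, with adjusted p-values of 0.0195 to 0.0474. For DXM against control it was 1.16 and 7 genes passed, all but Mcm7, Cdc45 and Cdc6. In the fit without the term none of the 10 passed, and the part of the mitochondrial share in these levels was not tested.

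**Figure D3:**
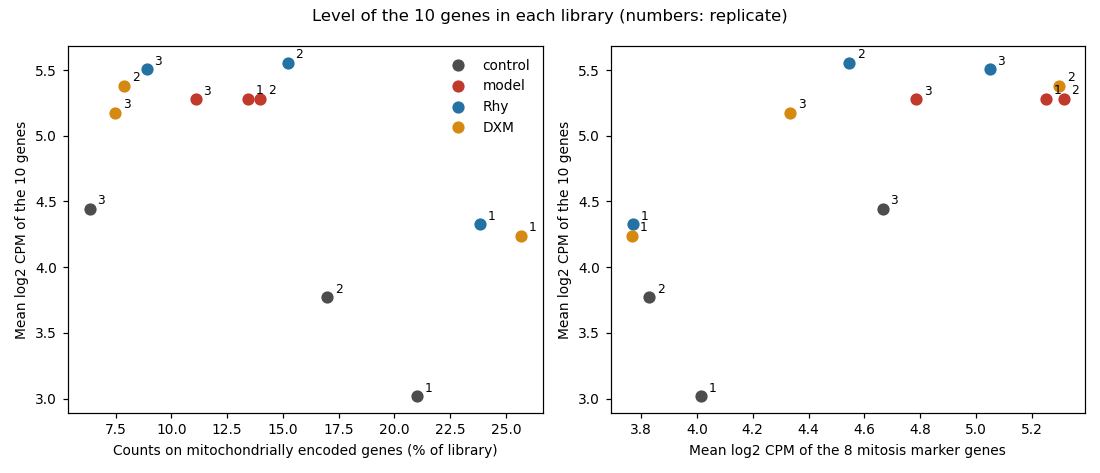
Mean log2 CPM of the 10 genes in each of the 12 libraries, with 1 point a library and a colour for each group. It is set against the percent of reads on mitochondrially encoded genes and against the mean log2 CPM of 8 markers of dividing cells. The axis names these markers mitosis marker genes. In the control, Rhy and DXM groups the library with the highest mitochondrial share is the lowest. Control 1 lies low for its level of the markers.

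Markers of dividing cells were compared with these genes. They are not limited to mitosis, so they do not set it apart from S phase. All 8 (Mki67, Top2a, Birc5, Ccnb1, Cdk1, Bub1, Aurkb and Plk1) were above 0 in model against control, with a median log2 difference of 0.98. In edgeR's test 4 were higher at an unadjusted p under 0.05, beside 5.11% of all genes. The median of these markers was -0.57 in Rhy against model and -0.53 in DXM against model, with all 8 below 0 in both, where the 10 genes had medians of -0.03 and -0.28. In both comparisons 0 of the 8 had an unadjusted p under 0.05, beside 1.98% (Rhy) and 2.80% (DXM) of all genes lower. The groups overlapped in each marker. In Rhy against control it was 0.31, with 6 of 8 above 0, and in DXM against control 0.36, with 7 of 8 above 0, where the 10 genes had 1.38 and 1.20. Whether the markers and the 10 genes differ in these values was not tested. The summed level of the markers was 155 to 276 CPM in the control group and 286 to 419 CPM in the model group. Over the 12 libraries the mean of the 10 genes had a Pearson correlation of 0.74 with that of the markers (Spearman 0.71). Control 1 stood apart, since the summed CPM of the 10 genes was 0.407 of the summed CPM of the markers there and 1.02 to 2.26 of it in the other 11 libraries. Mki67, the marker with the highest level, was at 157 CPM in control 1, close to the 159 CPM of DXM 2, the highest of the 12. Markers of other cells moved too. The 8 mature colonocyte markers were all lower in the model group (median -1.15, summed 11174 to 28486 CPM in control and 9771 to 13986 CPM in model), as were the 7 macrophage markers (median -0.73), and none of these lists was at 0 in a library. The 8 B cell markers had a median of 0.15 and the 8 T cell markers of -0.12. The 7 germinal centre B cell markers had a median of 0.88 with 6 above 0. In edgeR's test 1 of these 7 was higher and 1 lower at an unadjusted p under 0.05, beside 5.11% and 4.51% of all genes. Their median was -0.78 in Rhy against model and -1.31 in DXM against model, with all 7 below 0 in both. At an unadjusted p under 0.05, 1 of the 7 was lower in each, beside 1.98% and 2.80% of all genes. In Rhy against model all 8 B cell markers (median -1.08) and all 8 T cell markers (median -0.76) were also below 0. In DXM against model 6 of the 8 B cell and 4 of the 8 T cell markers were above 0. The 6 stem cell markers measured had a median of 0.31 in model against control. The part of these cells in the levels of the 10 genes was not tested.

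The 10 genes varied together. The 45 pairs had Pearson correlations of log2 CPM from 0.86 (Mcm3 with Cdt1) to 0.99 (Mcm5 with Cdc45) over the 12 libraries, with a median of 0.95. With the group means removed the range was 0.71 to 0.97. The libraries share their depth scaling and the mitochondrial share given above, so these values describe 12 libraries and carry no test.

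Among 16894 other genes, the one most like the mean of the 10 (Pearson correlation of log2 CPM over 12 libraries) was Dtl, at 0.99, whose protein marks Cdt1 for destruction in S phase. Uhrf1, which guides maintenance methylation to new DNA, followed at 0.99. The next 8 were Slfn9, Sae1 (SUMO activation), Orc1 and Gins2 (origin recognition and helicase assembly), Pcna-ps2, Mthfd1l (mitochondrial folate metabolism), Chek1 (replication checkpoint) and Pole2 (a subunit of polymerase epsilon), the last at 0.97. Pcna-ps2 may share reads with Pcna, which is among the 10. Of the 100 most alike genes, 16 were among 70 measured replication genes of the list below, and 0 were among the 8 markers of dividing cells. These 8 ranked from 315 (Cdk1, 0.87) to 5914 (Mki67, 0.23) of the 16894 genes. Dtl measured 2.17, 4.03 and 9.002 CPM in the control group and 17.7, 16.7 and 15.0 CPM in the model group. Its Rhy values were 7.53, 21.0 and 24.4 CPM and its DXM values 5.97, 19.2 and 16.4 CPM, with the same low libraries in both groups.

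Levels of different genes can be set side by side only per length, for which the deposited FPKM, which divides by gene length and depth, serves. Pcna had the highest FPKM of the 10 in each of the 12 libraries, with a median of 36.9. Mcm3 (13.99), Mcm7 (12.7), Mcm6 (12.5), Mcm5 (11.6) and Mcm4 (10.4) followed by median, with ranges that overlapped widely. Cdt1 (8.53) and Mcm2 (5.68) came next, and Cdc45 (2.45) and Cdc6 (1.68) were lowest. In the control group Mcm7 had 6.64 FPKM ± 1.20 (SD, n = 3) and Mcm2 had 2.29 ± 1.70, and in the model group they had 13.0 ± 0.476 and 6.01 ± 0.609.

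The protein ring holds each MCM subunit once, so the share of each gene in the summed FPKM of the 6 was compared. Mcm7 made up 31.8, 28.2 and 17.6% of the sum in control 1 to 3, 17.2 to 18.3% in the model group, 18.1 to 18.9% in the Rhy group and 24.6, 17.9 and 18.4% in the DXM group. Its share was high in control 1, control 2 and DXM 1, where the total was low, but not in Rhy 1. Mcm2 held 6.07 to 10.3% over all libraries, Mcm3 15.1 to 25.7%, Mcm4 10.9 to 17.4%, Mcm5 12.2 to 18.9% and Mcm6 13.4 to 25.4%. FPKM divides by the full annotated length, and reads of genes that overlap Mcm7 may add to its share.

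**Figure D4:**
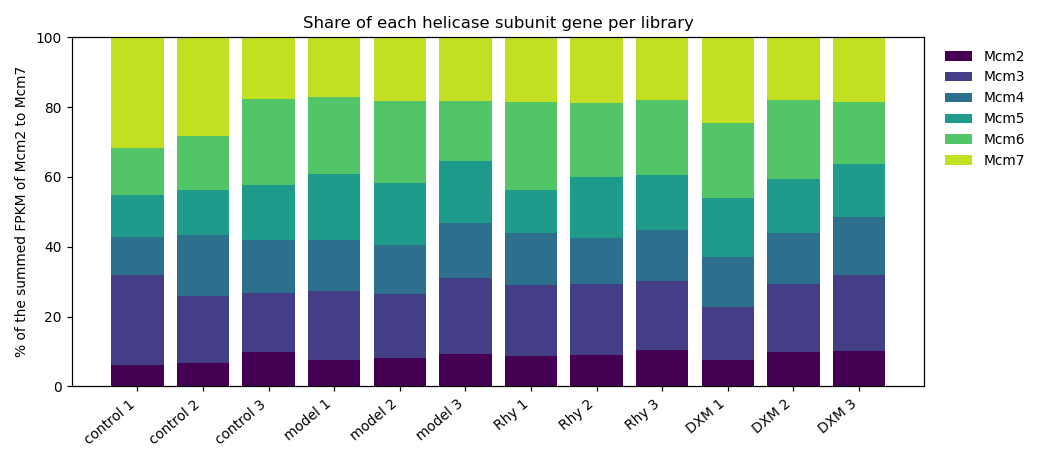
Percent of the summed FPKM of Mcm2 to Mcm7 that each of the 6 genes holds, as stacked bars for the 12 libraries. Mcm7 holds 31.8% in control 1 and 28.2% in control 2, and 17.2 to 18.9% in the model and Rhy libraries.

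Beyond the 10, a list of 71 other replication genes in 8 roles was examined, of which 70 passed the filter and Mcmdc2 did not. In model against control 65 of 70 were above 0, with a median log2 difference of 0.92. Without overlap 49 were higher and 0 lower, beside 10.4% and 6.61% of all genes. At an unadjusted p under 0.05 in edgeR's test 43 were higher and 0 lower, beside 5.11% and 4.51% of all genes, and after adjustment over all genes 0 passed. In Rhy against model the median was -0.13, with 0 higher and 2 lower at that limit, beside 1.74% and 1.98% of all genes. In DXM against model the median was -0.25, with 0 higher and 3 lower, beside 4.89% and 2.80% of all genes. These few lower genes were close to the share of all genes.

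The same fit was counted role by role. Nucleotide supply had 6 of 6 genes at an unadjusted p under 0.05 in model against control, with Rrm2, a subunit of ribonucleotide reductase, highest at 1.88 (SE 0.52). Fork protection and chromatin assembly had 8 of 8, from Tipin at 1.05 (SE 0.30) to Asf1b, a histone chaperone, at 1.83 (SE 0.55). The polymerases and primase had 8 of 12, with Prim1, the catalytic primase, highest at 1.37 (SE 0.33) and Pold4, a small subunit of polymerase delta, lowest at -0.75 (SE 0.40). Over the 12 libraries Pold4 had a Pearson correlation of -0.73 with the mean of the 10 genes.

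The clamp loader, nick sealing and single-strand binding genes had 8 of 14, from Rnaseh2b at 0.25 (SE 0.29) to Fen1 at 1.84 (SE 0.69), whose levels were low (mean 0.388 CPM in control and 1.44 CPM in model). The firing kinase and firing factors had 6 of 11, from Gins4 at -0.00 (SE 0.17) to Recql4 at 1.67 (SE 0.70). Of the 8 E2F factors, which control genes of this kind, 4 passed, with E2f1, an activator, highest at 1.70 (SE 0.42) and E2f3 lowest at -0.11 (SE 0.22). The origin recognition complex had 2 of 6, with Orc1 at 1.48 (SE 0.57) and Orc3 at -0.05 (SE 0.17). Of the 5 genes measured for licensing control and other MCM proteins 1 passed, Mcm10 at 1.25 (SE 0.31), and Mcmbp was lowest at -0.11 (SE 0.16). The share of all genes at that limit was 5.11% in this direction.

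**Figure D5:**
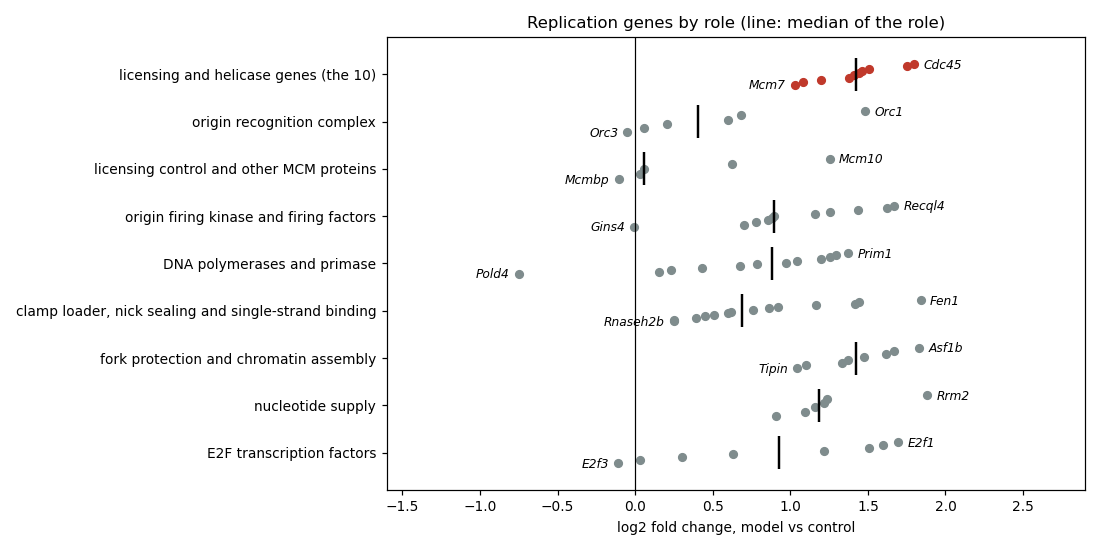
Log2 difference between model and control for the 10 genes and for the 70 measured replication genes in 8 roles, with 1 point a gene, a line at the median of each role, and the highest and lowest gene named in each role but nucleotide supply, where only the highest is named. The 8 fork protection and chromatin assembly genes lie at 1.05 and above, and Pold4 is lowest at -0.75.

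Some of these genes share their locus with others, and no strand setting is given for the counting. Mcm7 (chr5:138164583-138172422, minus strand, mm10) overlaps Cops6 and Ap4m1 on the opposite strand and holds Mir25, Mir93 and Mir106b. Cdc45 (chr16:18780447-18811987, minus strand) overlaps Ufd1 on the opposite strand. The starts of Mcm4 and Prkdc point away from each other and lie 466 bases apart. Ap4m1 starts 420 bases inside Mcm7 and Ufd1 starts 208 bases inside Cdc45, so these genes overlap at their starts. In these 3 neighbours the log2 difference between model and control was 0.20 (SE 0.23) for Prkdc, 0.25 (SE 0.25) for Ap4m1 and -0.01 (SE 0.18) for Ufd1. Over the 12 libraries the neighbour and the member had Pearson correlations of 0.46, 0.19 and -0.23. The highest count of an overlapping gene in a library was 2073 for Mcm7 and 782 for Cdc45. Their own highest counts were 1335 and 218. The difference of Cops6 is not given here, and the part of overlapping reads in the level of Mcm7 was not tested. A gene named after Pcna (chr2:132249162-132253314, minus strand), Pcna-ps2, had up to 961 counts in a library and a log2 difference of 1.10. The sequences of the pair were not compared, and reads could have been split between them.

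The promoters were examined because the levels of these genes varied together. Windows from 250 bases before to 50 bases after the start were taken from RefSeq on GRCm38.p6, which gave 10 windows for 9 genes, with 1 gene, Mcm4, having no entry. The E2F-type words TTTCCCGC, TTTCGCGC, TTTGCCGC and TTTGGCGC were searched on both strands, and so was CCAAT, the word of the NF-Y factor. An E2F-type word stood in 6 of the 9 genes, Mcm3, Mcm5, Mcm6, Mcm7, Cdc6 and Cdt1, and in 2.26% of all 32851 windows and 27.27% of 66 windows of the other replication genes. CCAAT stood in 7 of the 9 genes, and in 80.0% of their 10 windows, 37.41% of all windows and 46.97% of those of the other replication genes. A match is only a match of letters. The stretches with E2F-type words are printed because few other windows hold such a word. They read 5′ to 3′ on the strand of the gene, with E2F-type words, CCAAT and its reverse complement ATTGG in capitals. That of Mcm5 (chr8:75109349-75109508, plus strand) and that of Mcm6 (chr1:128359706-128359825, minus strand) end at the last base before the start. Both hold a pair of overlapping words on opposite strands, 153 and 149 bases before the start in Mcm5 and 110 and 106 bases before it in Mcm6.
Mcm5: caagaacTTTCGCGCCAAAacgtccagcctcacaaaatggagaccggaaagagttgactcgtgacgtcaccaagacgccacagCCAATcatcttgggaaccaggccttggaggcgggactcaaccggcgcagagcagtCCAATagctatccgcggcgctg
Mcm6: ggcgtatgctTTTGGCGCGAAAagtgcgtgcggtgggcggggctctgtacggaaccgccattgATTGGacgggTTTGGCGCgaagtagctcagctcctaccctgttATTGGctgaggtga

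In Mcm3, Mcm7 and Cdc6 the same word, TTTCCCGC, stood on the opposite strand and reads GCGGGAAA on the strand of the gene. It lay 165 bases before the start in Mcm7, 138 bases before it in Cdc6 and 20 bases after it in Mcm3, and the word of Cdt1, TTTGGCGC, lay 33 bases after the start. Further words stood 39 bases after the start in Mcm3 and 17 bases after it in Mcm7. The positions are chr1:20820278-20820301 (Mcm3, minus strand), chr5:138172033-138172056 (Mcm7, minus strand), chr11:98908005-98908028 (Cdc6, plus strand) and chr8:122568039-122568062 (Cdt1, plus strand). All distances are from the RefSeq start. In the count table Mcm7 reaches to 138172422 and Cdc6 begins at 98907801, so the stretches of these genes lie inside the genes as counted. Mcm7 also had another window (chr5:138171217-138171516), which held no E2F-type word.
Mcm3: cttccgtgGCGGGAAAacttggga
Mcm7: ttcgaaccGCGGGAAAcagggtgt
Cdc6: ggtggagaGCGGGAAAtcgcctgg
Cdt1: actaccttTTTGGCGCcatggcgc
The 3 genes with a window and no E2F-type word, Mcm2, Cdc45 and Pcna, differed between model and control by 1.44, 1.80 and 1.08, and the 6 with such a word by 1.03 to 1.75.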

How the data were processed

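RNA-Seq of colonic tissue was analysed in 12 libraries. The authors deposited whole-number counts per gene, not normalized, and FPKM values; the submitters' processing notes name HISAT2 2.0.5, featureCounts 1.5.0-p3, DESeq2 1.16.1 and mm10. All 262985 FPKM values deposited above 0 (100%) were recovered from the counts within 0.1% or 0.001 FPKM, so both tables hold the same reads. Genes were kept with filterByExpr (minimum count 10), and the groups were compared with edgeR 4.0.16 in R 4.3.3 (TMM scaling, quasi-likelihood test, two-sided, 12 libraries in 1 fit) with Benjamini-Hochberg adjustment over 16904 genes. The standard error is that of the fitted log2 difference. Correlations used log2 CPM with a prior count of 2. Alternatives used DESeq2 1.42.0, limma 3.58.1 on log2(FPKM + 1) and log2(FPKM + 0.1), other scalings and filters, and each library left out. The labels state no pairing of libraries by replicate number. Deviations from the group means of same-numbered control and model libraries correlated at 0.21, 0.10 and 0.36. A block for the replicate number was therefore fitted as an alternative, and the main fit held the group only. The genes and lists were chosen with earlier results of these data known. Genes named besides the 10 are the highest and lowest of each role and the 10 most alike, of which 1 is not reported here; Mki67, overlapping genes and gene pairs were named after their values were seen. The RNA-Seq methods of the study name the control, model and Rhy groups only.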

Additional observations from a re-analysis of the deposited data

How the results depend on the processing

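The median log2 difference of the 10 genes between model and control was 1.11 without control 1 to 1.77 without control 3, and 1.17 to 1.57 under the other alternatives. It kept its sign in each of the 27 alternatives, as did the medians of Rhy and DXM against control in 26 each. Against model the sign of the median turned in 3 of 26 alternatives for Rhy (without Rhy 1, without the mitochondrially encoded genes and with the term for their share) and in 1 of 26 for DXM (without DXM 1). In DXM against Rhy it turned in 1 of 26, also without DXM 1. The count of the 10 genes past an adjusted p of 0.05, 0 in edgeR, was 5 in model against control under DESeq2 with only the groups compared and 1 in DXM against control under DESeq2 with all libraries. For the 71 replication genes it was 3 and 13 in model against control and 7 and 2 in DXM against control, under DESeq2 with all libraries and with only the groups compared. With the term for the mitochondrial share, added after the data were seen, it was 10 of the 10 genes and 13 of the list in Rhy against control, and 7 and 6 in DXM against control. With that term 315 of all 16904 genes passed in Rhy against control and 652 in DXM against control. The cause of these differences was not tested. In limma on log2(FPKM + 1) and log2(FPKM + 0.1) none of the 10 passed in any comparison. With model 1 and model 2 summed into 1 library the median between model and control was 1.43. In edgeR's test all 10 genes then had an unadjusted p under 0.05, as did 866 of 17346 genes, against 1626 of 16904 with the pair apart. With a replicate block the median was 1.57 in the fit of all libraries and 1.53 in a fit of only the control and model libraries, the latter added after the data were seen. All 10 genes were at an unadjusted p under 0.05 and 0 past the adjustment in both fits with the block, so the block changed no call there. In no other pair of groups were all 3 same-numbered correlations over 0.1, and over all 18 they ran from -0.31 to 0.36. Depth limits Cdc45 most, with as few as 20 counts in a library.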
